A study of Mus musculus with 8 samples.

Results

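Genes of translation initiation factors were followed in left ventricles of mice with angiotensin II (ANG II)-induced hypertension. They were taken by name alone, as the genes of the deposited expression table whose symbol starts with Eif and a digit from 1 to 6, without pseudogenes (symbols holding -ps) and without Eif2s3x and Eif2s3y, and they came to 54 of 55679 genes. The study looked for genes that change in hypertensive left ventricular hypertrophy. Male wild-type C57BL/6J mice received saline (control, 4 libraries) or ANG II, a blood pressure-raising peptide hormone, at 1500 ng/kg/min (4 libraries), in both groups for 7 days through a pump under the skin. Poly(A) RNA of the left ventricle was sequenced, and the age of the mice was not given in the sources used here.

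Initiation factors bring the ribosome to the start codon of a messenger RNA. eIF2 carries the initiator tRNA to the small ribosomal subunit, where eIF1, eIF1A, eIF3 and eIF5 join it; eIF4F, made of the cap-binding eIF4E, the scaffold eIF4G and the RNA helicase eIF4A, loads this complex on the capped end of the message. The pathway has a pair of well-known brakes: 4E-binding proteins (4E-BPs) hold eIF4E until the kinase mTORC1 phosphorylates them, and the eIF2 kinases phosphorylate eIF2, which blocks its recharging by eIF2B and is the centre of the integrated stress response. Growth of heart muscle cells under load is known to require more protein synthesis, and much of this control acts on the proteins, which RNA levels do not show.

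Expression was given in FPKM (fragments scaled to transcript length and library size), a scale per length, and the 8 libraries held 14455709 to 16564913 fragments. The cardiomyocyte markers summed to 48431 to 49298 FPKM in control against 36727 to 39570 in ANG II, with 2 of 10 called lower (Myh6 and Tnni3) and none at 0. Markers of other cells were higher. The fibroblast list summed to 535 to 804 FPKM in control against 3375 to 4025 in ANG II (8 of 9 called higher). The macrophage list summed to 204 to 258 and 454 to 654 (8 of 8), and the erythroid list to 96.8 to 487 and 581 to 2083 (5 of 5). The atrial list summed to 7.72 to 58.5 and 195 to 339 FPKM (2 of 4 called higher, Nppa and Sln). Nppa, the gene of ANP, rose from a mean of 8.61 to 141 FPKM, and the paper lists ANP among genes activated in cardiomyocytes. Sln had overlapping groups, and Myl7 and Myl4, without overlap, were not called (limma, Benjamini-Hochberg adjusted p = 0.0557 for each). The endothelial list (367 to 422 FPKM in control, 415 to 496 in ANG II, 1 of 6 called higher), the smooth muscle and pericyte list (446 to 521 and 512 to 575, 2 of 6) and the skeletal muscle list (984 to 1455 and 1009 to 1970, 2 of 5 tested, with Myh4 at 0 in all 8 libraries) overlapped between the groups. The mitochondrial genome gave 26.5 ± 0.303% of fragments in control against 20.0 ± 1.25% in ANG II (SD of 4 libraries per group). The part of these shifts in the values of the initiation factor genes was not tested, and in whole ventricle fewer cells of a type and less RNA per cell cannot be told apart.

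Of the 54 genes, 52 reached the mean of 0.1 FPKM needed for a test, and Eif4e1b and Eif2c5 were listed at 0 in all 8 libraries. ANG II raised 4 of the 52: Eif4ebp1, Eif4a1, Eif5a2 and Eif2ak3. A gene was called changed when its Benjamini-Hochberg adjusted p-value from limma, over all genes tested, was under 0.05 and its log2 fold change (ANG II over control, of FPKM + 1) was beyond 0.5 in either direction. The 4 higher calls were 7.69% of the members, where 14% of all 19364 tested genes were called higher, and 0 members were called lower, where 1.41% of all genes were. Of the 46 members at a mean of at least 10 FPKM, 2 were called (4.35%), both higher, against 14.7% called higher and 1.72% lower of all 6742 genes at that level. Without the fold change threshold more members passed. An adjusted p-value under 0.05 alone was reached by 27 members (51.9%), all with the higher value in ANG II, against 28.4% of all genes higher and 4.91% lower. By the same p-value, 54.3% of the 46 well-expressed members were higher and 0% lower, against 40.5% and 9.31% of all genes at that level. The 4 control and 4 ANG II values did not overlap, with ANG II higher, in 27 members (51.9%), and in 0 members with ANG II lower, where the shares were 28.7% and 5.06% of all tested genes and 39.8% and 9.15% of those at 10 FPKM or more.

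The changes were small and moved within a narrow band. Log2 fold changes ran from -0.14 for Eif4e3 to 0.80 for Eif4ebp1, with a median of 0.20 and a middle range (25th to 75th percentile) from 0.11 to 0.29. Over all genes at 10 FPKM or more the median was 0.16 and the middle range was wider, from -0.02 to 0.36. The members' middle range is over all 52 tested members, of which 46 were at that level, with a median of 0.20. Levels ran from a mean of 0.584 FPKM for Eif4ebp3, a 4E-BP, to 861.6 FPKM for Eif4g2, an eIF4G relative. The SD among the 4 libraries of a group was at the median 5.96% of the mean in control and 5.76% in ANG II.

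**Figure D1:**
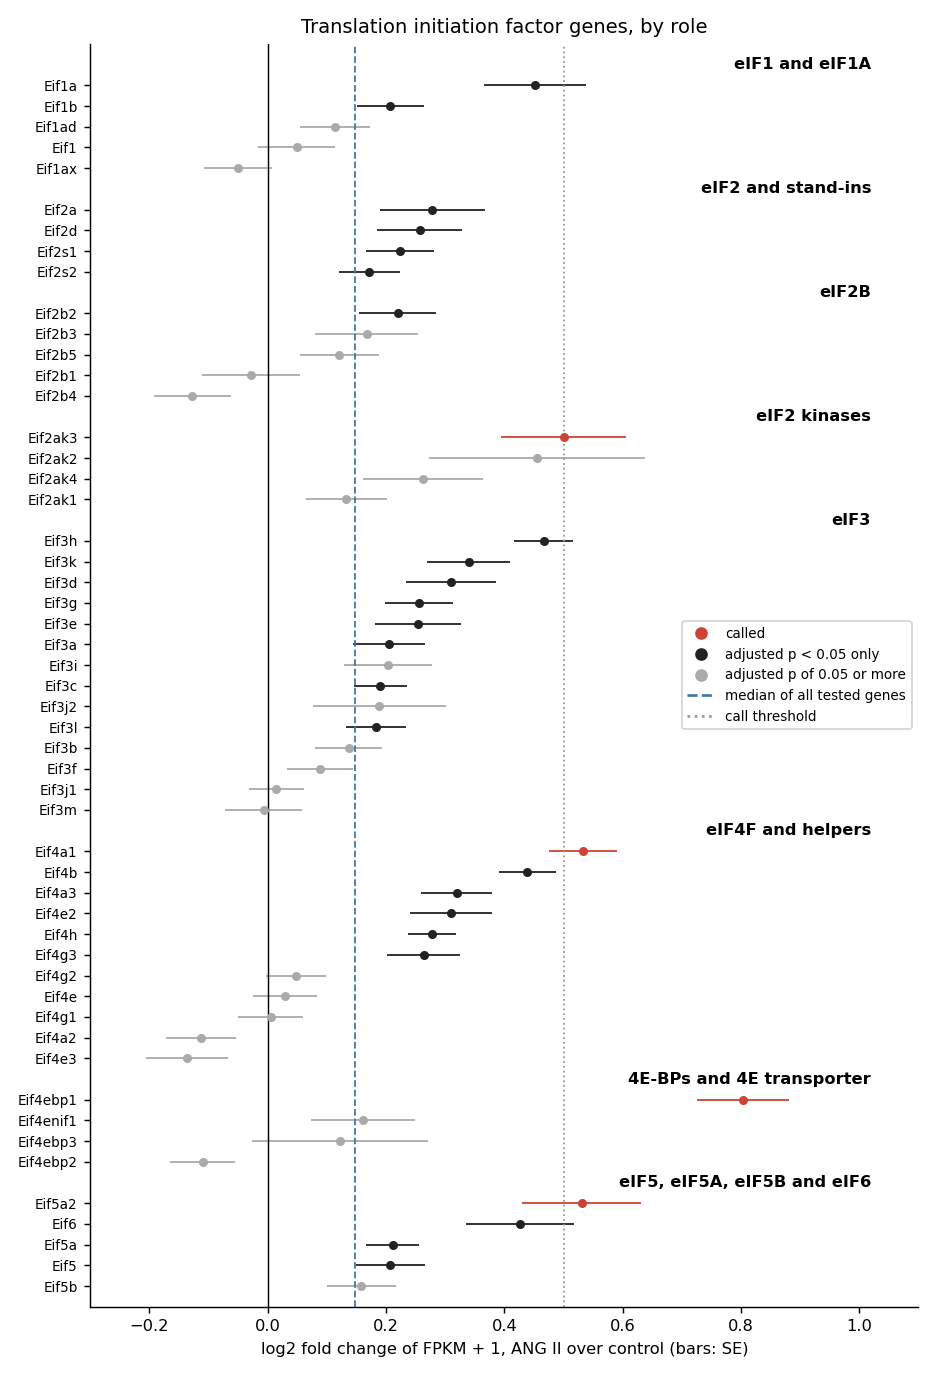
Log2 fold change of FPKM + 1 (ANG II over control, x axis) with its standard error for the 52 tested initiation factor genes, grouped by role; red points were called, black points had an adjusted p-value under 0.05 without passing the fold change threshold of 0.5 (dotted line), and grey points had neither. The dashed line is the median of all tested genes, 0.15, and 34 of the 52 members lay above it.

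The sign of the fold change turned in 25 of the 52 members under at least 1 of 3 other scalings of the libraries, and was kept under all 3 in the other 27. With the values as deposited the median gene of the whole table was itself 0.15 higher in ANG II (log2), and 45 members had a positive and 7 a negative fold change. When each library was scaled by the median of its ratios to all others, the median of all genes fell to 0.0040, 23 members were positive and 29 negative, and 5 had an adjusted p-value under 0.05 with a higher value (9.62%, all genes 14.6%) and 10 with a lower value (19.2%, all genes 13.1%). A set of 5 members kept an adjusted p-value under 0.05 and the higher value in ANG II as deposited and under each of 3 other scalings, namely median of ratios, quantile normalization and rescaling without the mitochondrially encoded genes and the 10 most abundant genes. These 5 were Eif4ebp1, Eif4a1, Eif4b, Eif3h and Eif5a2. Another 5, Eif4a2, Eif4ebp2, Eif4e3, Eif2b4 and Eif1ax, were lower at that p-value under each of the 3 other scalings, and had adjusted p-values of 0.157 or more as deposited. With the fold change threshold, only Eif4ebp1 kept its call (1.92% of the members under each other scaling). The shares of all genes then called higher and lower were 8.63% and 4.16% with libraries scaled by median ratios, 7.32% and 5.07% after quantile normalization, and 10.2% and 2.77% after rescaling. By the p-value alone, quantile normalization gave 5 members higher (9.62%, all genes 12.6%) and 6 lower (11.5%, all genes 15.3%), and rescaling 9 higher (17.3%, all genes 17.8%) and 5 lower (9.62%, all genes 8.93%).

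**Figure D2:**
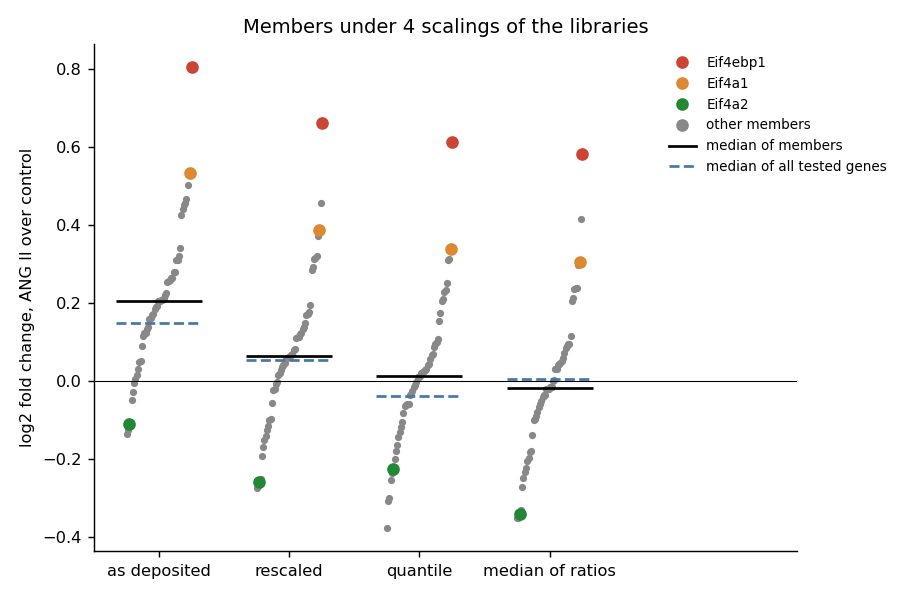
Log2 fold changes of the 52 tested members (y axis, each point a gene, sorted within a column) as deposited and under 3 other scalings of the libraries. The black line marks the median of the members (0.20 as deposited, -0.02 under median-of-ratios scaling) and the dashed line that of all tested genes; Eif4ebp1 stayed highest and Eif4a2 negative in all 4 columns.

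The 4E-BPs, which keep eIF4E away from eIF4G, parted from each other. Eif4ebp1 (ENSMUSG00000031490, chr8:27260329-27276674, GRCm38, protein coding) was at 25.4, 29.8, 22.6 and 24.97 FPKM in control replicates 1 to 4 and at 47.5, 45.2, 43.7 and 45.3 FPKM in ANG II replicates 1 to 4. The lowest ANG II library was well above the highest control library. The mean rose 1.77-fold, from 25.7 ± 3.01 to 45.4 ± 1.58 FPKM (SD of 4 libraries per group), and the log2 fold change was 0.80 (SE 0.0776; limma, Benjamini-Hochberg adjusted p = 7.27e-05) and stood at 0.58 under median-of-ratios scaling. Eif4ebp2, the paralog that binds eIF4E in the same way, was at 33.7, 34.1, 32.6 and 35.04 FPKM in control against 32.3, 29.2, 30.6 and 33.2 FPKM in ANG II. These values overlapped, with a log2 fold change of -0.11 (SE 0.0551; limma, Benjamini-Hochberg adjusted p = 0.157). Eif4ebp2 was thus the more abundant of the pair in every control library and Eif4ebp1 in every ANG II library. Eif4ebp3 lay between 0.243 and 1.06 FPKM in the 8 libraries, and 65.5% of its sequence, read as words of 50 bases, is found in other genes too, so its level is uncertain. Eif4enif1, which encodes the eIF4E transporter 4E-T, had overlapping values of 21.9 to 25.8 FPKM in control against 24.5 to 31.7 FPKM in ANG II.

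A ratio between genes of the same library does not depend on a single scaling factor per library, and it was computed for 5 families of paralogs or alternative subunits. Eif4ebp1 made up 43.0, 46.6, 41.0 and 41.6% of the FPKM sum of Eif4ebp1 and Eif4ebp2 in control and 59.5, 60.8, 58.8 and 57.7% in ANG II. The share was 43.1 ± 2.54% and 59.2 ± 1.27% (SD of 4 libraries per group), a difference of 16.2 percentage points without overlap (two-sided exact permutation test, p = 0.0286, which is the lowest value that 4 against 4 can give, and 0.0476 after Benjamini-Hochberg adjustment over the 5 families).

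The helicase eIF4A showed the same kind of shift between paralogs. Eif4a1 (ENSMUSG00000059796, chr11:69666936-69672423, GRCm38, protein coding), which encodes the main eIF4A of growing cells, was at 179, 155, 176 and 173 FPKM in control against 261, 240.0, 253 and 236 FPKM in ANG II. All ANG II libraries were above all control libraries, and the mean rose 1.45-fold (log2 fold change 0.53, SE 0.0579; limma, Benjamini-Hochberg adjusted p = 1.35e-04). Without control replicate 2, the lowest library, the log2 fold change was 0.49 and the call was lost to the fold change threshold, while the adjusted p-value was 3.83e-04 (limma, Benjamini-Hochberg). Under the 3 other scalings the log2 fold change was 0.30 to 0.39 and not called. Of the 50-base words of Eif4a1, 28.4% are shared with other genes, and 24.2% with the pseudogene Eif4a-ps4, so part of its value is uncertain. Eif4a2, the paralog common in muscle and brain, was at 425, 365, 409 and 415 FPKM in control against 358, 360.3, 384 and 389 FPKM in ANG II. Of its own words, 13.6% are shared with other genes. It remained the more abundant of the pair in all 8 libraries, and its groups overlapped (log2 fold change -0.11, SE 0.0591; limma, Benjamini-Hochberg adjusted p = 0.176). Eif4a1 made up 29.7, 29.8, 30.1 and 29.5% of the FPKM sum of the pair in control, and 42.1, 40.0, 39.8 and 37.8% in ANG II. The control shares lay close together and every ANG II share was above them, with means of 29.8 ± 0.265% and 39.9 ± 1.79% (SD of 4 libraries per group) and a difference of 10.2 percentage points (two-sided exact permutation test, p = 0.0286, adjusted 0.0476 over the 5 families).

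**Figure D3:**
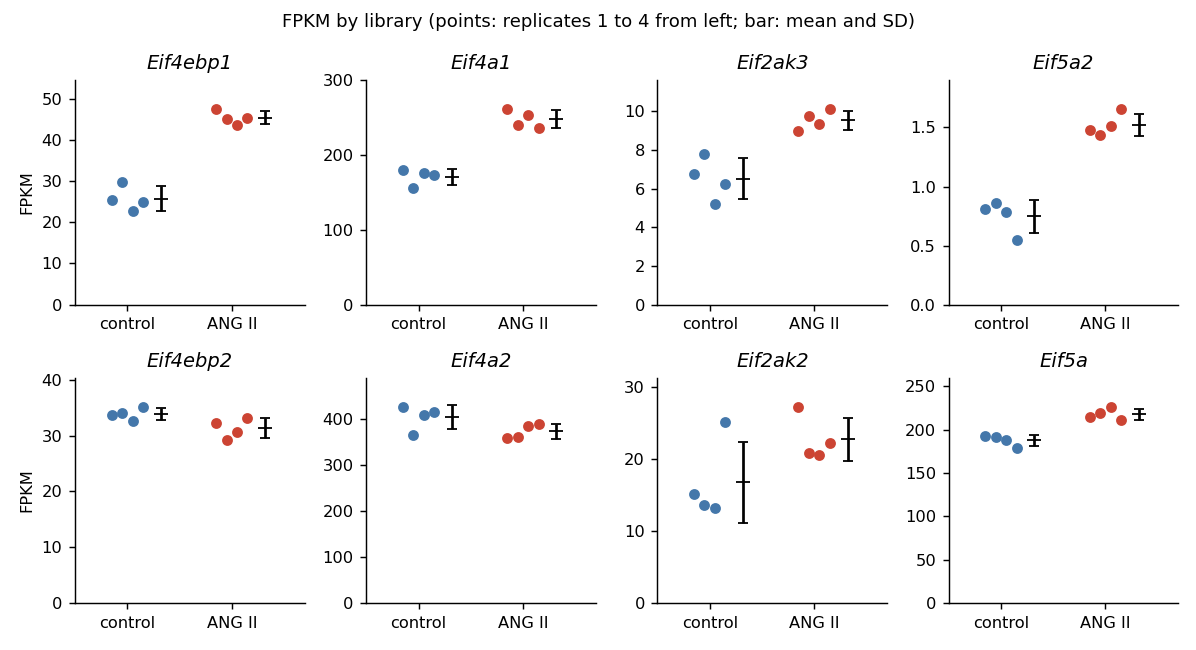
FPKM (y axis, from 0) in each library of control (blue) and ANG II (red) for the 4 called members and, below each, a paralog or kinase of the same group; points are replicates 1 to 4 from left to right, with the mean and SD beside them. Eif4ebp1, Eif4a1, Eif2ak3 and Eif5a2 did not overlap between the groups, Eif4ebp2 and Eif4a2 did, and control replicate 4 stood apart for Eif2ak2 at 25.1 FPKM.

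**Figure D4:**
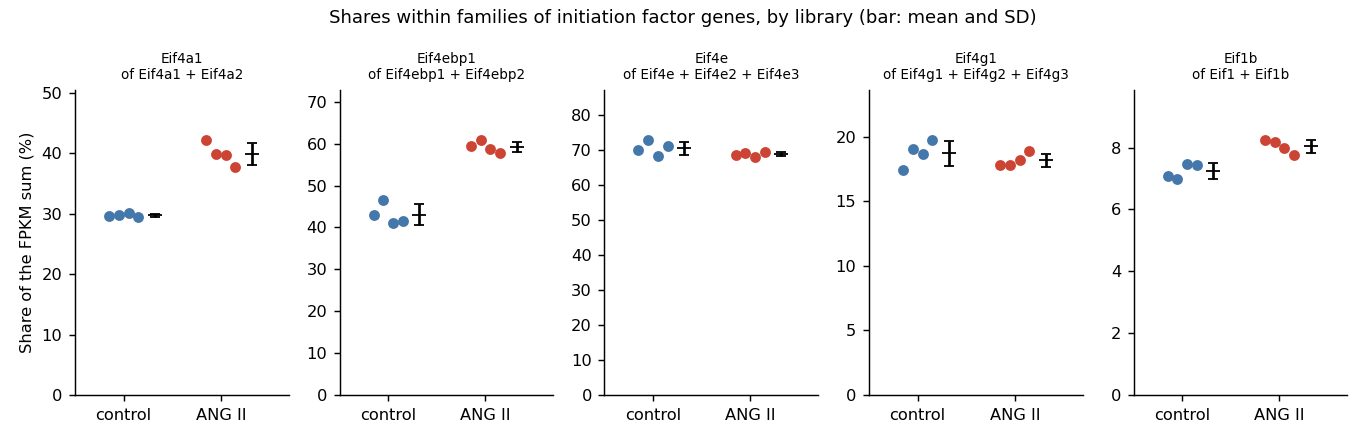
Share of 1 gene in the FPKM sum of its family (y axis, percent, from 0) in each control (blue) and ANG II (red) library, with the mean and SD beside the points. The shares of Eif4a1, Eif4ebp1 and Eif1b did not overlap between the groups, and those of Eif4e and Eif4g1 did.

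Promoter sequences were looked at because members moved by different amounts, and they are shown for the eIF4A pair, whose ratio shifted, and for Eif5a2. RefSeq (GRCm38.p6) gave a window of 250 bases before to 50 bases after the start for 42 of the 54 members, and none was used for Eif1a, Eif2b3, Eif3e, Eif3h, Eif3i, Eif3j2, Eif4e1b, Eif4e3, Eif4ebp1, Eif4ebp3, Eif4g2 and Eif6. The letters CACGTG, the E-box bound by MYC and by related factors, were found on either strand in 10 of the 42 windows (23.8%), those of Eif1b, Eif3a, Eif3f, Eif3k, Eif4a1, Eif4e, Eif4g1, Eif4h, Eif5a and Eif5a2. They occur in 8.09% of all 27025 genes with a window and in 12.0% of the 5314 at 10 FPKM or more. Both calls and genes near 0 are in that group, since Eif4a1 and Eif5a2 were called while Eif4e and Eif4g1 had log2 fold changes of 0.03 and 0.00. The letters TGATGNAA, a form of the element bound by ATF4, were in 0 of the 42 windows, 4.51% of all and 2.63% of those at 10 FPKM or more. The median GC content was 62.3% for the members, 61.7% for genes at 10 FPKM or more and 52.75% for all genes with a window. The 250 bases before the start follow, with each CACGTG in capitals, for Eif4a1 (chr11:69672424-69672673, minus strand), Eif4a2 (chr16:23107218-23107467, plus strand) and Eif5a2 (chr3:28781027-28781276, plus strand).
Eif4a1: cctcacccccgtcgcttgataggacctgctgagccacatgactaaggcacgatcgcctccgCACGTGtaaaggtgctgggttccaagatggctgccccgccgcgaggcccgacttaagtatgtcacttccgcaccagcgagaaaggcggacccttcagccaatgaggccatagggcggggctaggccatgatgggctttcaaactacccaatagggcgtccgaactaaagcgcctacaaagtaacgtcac
Eif4a2: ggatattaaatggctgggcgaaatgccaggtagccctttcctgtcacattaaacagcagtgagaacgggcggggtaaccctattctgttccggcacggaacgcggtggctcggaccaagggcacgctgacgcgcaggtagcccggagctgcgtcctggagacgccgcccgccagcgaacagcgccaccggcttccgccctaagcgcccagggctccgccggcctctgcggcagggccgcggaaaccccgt
Eif5a2: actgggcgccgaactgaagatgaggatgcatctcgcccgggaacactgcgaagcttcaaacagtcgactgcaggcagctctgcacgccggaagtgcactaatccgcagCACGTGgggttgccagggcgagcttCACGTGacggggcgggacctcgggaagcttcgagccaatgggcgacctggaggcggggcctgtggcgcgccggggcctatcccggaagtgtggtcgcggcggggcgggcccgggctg
The motif of Eif4a1 begins 189 bases before the start and those of Eif5a2 begin 142 and 117 bases before it, and the window of Eif4a2 holds none.

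Of the other genes of eIF4F and its helpers, the core cap-binding genes had nearly equal means as deposited. Eif4e, the cap-binding protein, was at 98.2 ± 6.36 FPKM in control against 100.02 ± 2.47 FPKM in ANG II, and Eif4g1, the scaffold, at 201 ± 12.5 and 201 ± 6.52 FPKM (SD of 4 libraries per group). Under median-of-ratios scaling both were lower, with log2 fold changes of -0.20 and -0.22 (limma, Benjamini-Hochberg adjusted p = 0.0283 for each). Eif4g2, a scaffold relative that lacks the eIF4E-binding part, was the most abundant member with 853, 809, 889 and 839 FPKM in control against 883, 899.7, 849 and 870.0 FPKM in ANG II, which overlapped. Cofactors of the helicase were not called. Eif4b, which stimulates eIF4A, was at 122, 124, 118 and 123 FPKM in control against 176, 162, 157 and 168 FPKM in ANG II. Its groups lay far apart for their spread, with a log2 fold change of 0.44 (SE 0.0477; limma, Benjamini-Hochberg adjusted p = 1.35e-04) that stayed under the fold change threshold and was 0.21 to 0.29 under the 3 other scalings. Eif4h, a smaller eIF4A cofactor, was at 75.9 ± 2.15 and 92.2 ± 1.23 FPKM (log2 fold change 0.28), Eif4g3 at 24.8 ± 1.45 and 29.9 ± 1.61 (0.26), Eif4a3, the helicase of the exon junction complex, at 45.0 ± 3.32 and 56.3 ± 2.04 (0.32), and Eif4e2, a cap-binding relative known for repression, at 24.0 ± 2.05 and 29.9 ± 1.29 (0.31; SD of 4 libraries per group). These 4 had adjusted p-values under 0.05 as deposited, and only Eif4h kept one under any of the 3 other scalings, under rescaling (0.0441; limma, Benjamini-Hochberg), with 0.419 under median-of-ratios scaling and 0.0727 after quantile normalization. Eif4e3, another cap-binding relative, was the member with the lowest fold change, at 17.1 ± 1.34 and 15.5 ± 0.718 FPKM with overlapping groups. The share of Eif4e in the sum of Eif4e, Eif4e2 and Eif4e3 was 70.4 ± 1.82% in control against 68.8 ± 0.607% in ANG II (difference -1.67 percentage points, exact two-sided permutation test, p = 0.143, adjusted 0.179), and that of Eif4g1 in the 3 eIF4G genes 18.7 ± 0.952% and 18.2 ± 0.513% (difference -0.53, p = 0.343, adjusted 0.343 by the same exact test; SD of 4 libraries per group).

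eIF3, the largest factor, holds the small ribosomal subunit and meets eIF4G. Its 14 genes included 0 calls, and 8 had an adjusted p-value under 0.05 with the higher value in ANG II as deposited (28.4% of all tested genes, and 40.5% of those at 10 FPKM or more). As deposited, the sum over the 14 was 949 ± 23.1 FPKM in control against 1122 ± 34.2 FPKM in ANG II (SD of 4 libraries per group), with library ranges of 922 to 975 and 1098 to 1171 that did not overlap. Eif3h, the most abundant of them, took the largest part of that step. It was at 203, 194, 192 and 195 FPKM in control against 293, 268, 259 and 265 FPKM in ANG II. The groups were clearly apart, at a log2 fold change of 0.47 (SE 0.0503; limma, Benjamini-Hochberg adjusted p = 1.29e-04), and 20.3% of the 50-base words of the gene occur elsewhere. Eif3k was at 62.1, 62.2, 58.4 and 55.5 FPKM in control against 82.9, 70.2, 80.4 and 69.6 FPKM in ANG II, also without overlap (log2 fold change 0.34, SE 0.0703; limma, Benjamini-Hochberg adjusted p = 0.00466). Under the 3 other scalings Eif3h, at 0.24 to 0.32, kept an adjusted p-value under 0.05, and Eif3k, at 0.11 to 0.19, did not. Smaller differences at that p-value, as deposited, were those of Eif3d (log2 fold change 0.31), Eif3g (0.26), Eif3e (0.25), Eif3a (0.21), Eif3c (0.19) and Eif3l (0.18). None of these 6 kept that p-value under another scaling, and under median-of-ratios scaling Eif3a (-0.02), Eif3c (-0.04) and Eif3l (-0.04) turned negative. Eif3a and Eif3c encode large core subunits, and Eif3d is known to bind the cap of some messages. The value of Eif3d is less sure, as 43.3% of its exons face a gene on the other strand and 37.2% of its words are shared. Eif3i, Eif3j2, Eif3b, Eif3f, Eif3j1 and Eif3m made up the other 6, with log2 fold changes from 0.20 down to -0.01 and adjusted p-values of 0.0625 or more. Reads of Eif3j1 and Eif3j2 may have been divided between them, as 36.6% of the words of Eif3j1 and 90.8% of those of Eif3j2 occur in the other. With any other gene the shares were 50.9% and 91.8%.

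For eIF2 and the factors that can stand in for it, all 4 genes had adjusted p-values under 0.05 with the higher value in ANG II as deposited (28.4% of all tested genes, and 40.5% of those at 10 FPKM or more), and 0 were called. None of the 4 kept such a p-value under any of the 3 other scalings. Eif2a, an alternative carrier of initiator tRNA that is not an eIF2 subunit, was at 23.1, 27.1, 21.8 and 22.0 FPKM in control against 31.7, 24.9, 29.0 and 29.3 FPKM in ANG II. Control replicate 2 was above ANG II replicate 2 there (log2 fold change 0.28, SE 0.0893; limma, Benjamini-Hochberg adjusted p = 0.0369). Eif2d, another non-canonical factor that also acts in ribosome recycling, was at 10.4, 11.3, 11.6 and 11.5 FPKM and 12.7, 14.4, 12.7 and 14.5 FPKM (log2 fold change 0.26, SE 0.0715), without overlap. Eif2s2, the beta subunit, was at 35.1, 32.9, 33.2 and 34.0 FPKM in control against 36.7, 36.8, 40.6 and 38.7 FPKM in ANG II. Eif2s1, the alpha subunit that the stress kinases phosphorylate, was at 25.1 ± 0.848 and 29.5 ± 1.72 FPKM (SD of 4 libraries per group; log2 fold change 0.22). Neither subunit overlapped between the groups, and under median-of-ratios scaling the log2 fold changes were -0.05 for Eif2s2, 0.0022 for Eif2s1, 0.06 for Eif2a and 0.04 for Eif2d.

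eIF2B recharges eIF2 with GTP and is the enzyme that phosphorylated eIF2 inhibits. Of its 5 subunit genes, 0 were called and Eif2b2, the beta subunit, had an adjusted p-value under 0.05. It was at 22.8, 23.7, 21.4 and 20.97 FPKM in control against 23.6, 26.5, 27.3 and 26.9 FPKM in ANG II, with ANG II replicate 1 inside the control range (log2 fold change 0.22, SE 0.0658; limma, Benjamini-Hochberg adjusted p = 0.0279). It missed that p-value under each of the 3 other scalings, with log2 fold changes of -0.00085 under median-of-ratios scaling, -0.0033 after quantile normalization and 0.08 after rescaling. Eif2b4, the delta subunit and by the mean of all libraries the most abundant of the 5, was at 40.3, 38.5, 37.3 and 39.6 FPKM in control against 33.3, 38.1, 32.7 and 38.5 FPKM in ANG II. It had the lower mean in ANG II with overlapping groups (log2 fold change -0.13, SE 0.0656; limma, Benjamini-Hochberg adjusted p = 0.168). Its ANG II mean of 35.6 FPKM was below that of Eif2b5, at 36.7 FPKM. The sum over the 5 genes was 129 ± 3.44 and 133 ± 4.99 FPKM (SD of 4 libraries per group), with overlapping library ranges.

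The 4 eIF2 kinases sense different stresses, and 1 of them was called. Eif2ak3 encodes PERK, the kinase of the endoplasmic reticulum that answers unfolded proteins. It was at 6.75, 7.77, 5.22 and 6.24 FPKM in control against 8.98, 9.73, 9.32 and 10.1 FPKM in ANG II. The groups did not overlap and the mean rose 1.47-fold, to a log2 fold change of 0.5003 (SE 0.106; limma, Benjamini-Hochberg adjusted p = 0.00521), just past the threshold of 0.5. The nearest member below it was Eif3h at 0.47. The call of Eif2ak3 was lost without control replicate 3 (0.41), control replicate 4 (0.49), ANG II replicate 2 (0.49) or ANG II replicate 4 (0.47), and under the 3 other scalings (0.21 to 0.37). Eif2ak4 (GCN2, which senses uncharged tRNA) lay at 2.92 to 3.86 FPKM in control against 3.75 to 4.53 FPKM in ANG II, and Eif2ak1 (HRI, which senses heme and mitochondrial stress) at 12.4 to 13.9 and 12.8 to 14.7 FPKM. Both overlapped between the groups.

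Eif2ak2 encodes PKR, the kinase activated by double-stranded RNA and induced by interferon, and its values turned on a single library. It was at 15.1, 13.6, 13.1 and 25.1 FPKM in control against 27.1, 20.8, 20.5 and 22.1 FPKM in ANG II. Control replicate 4 was above 3 of the 4 ANG II libraries, and the other 3 controls were below all of them. With all libraries the log2 fold change was 0.46 (SE 0.182) and the gene was not called (limma, Benjamini-Hochberg adjusted p = 0.0824). Without control replicate 4 it was 0.66 (SE 0.104) and called (adjusted p = 0.00266 by the same fit). Interferon-inducible genes had the same library apart: of 19 such genes, listed after these values had been seen, control replicate 4 was the highest control in 18 and above all 4 ANG II libraries in 13. Isg15, a ubiquitin-like antiviral protein, was at 12.0, 6.92, 8.84 and 23.8 FPKM in control against 23.5, 15.3, 13.7 and 12.9 FPKM in ANG II. The 19 genes summed to 177 to 454 FPKM in control against 264 to 405 FPKM in ANG II, and 1 of them, Mx1, was called higher (5.26%, all genes 14.0%). Without control replicate 4, a comparison added after the data were seen, 12 of the 19 were called higher (all genes 13.1% in that fit): Bst2, Ifit1, Ifit2, Ifit3, Irf7, Isg15, Mx1, Oas1a, Oasl2, Rtp4, Usp18 and Zbp1. The bases from 100 before to 30 after the RefSeq start of Eif2ak2 (chr17:78882543-78882672, minus strand, GRCm38.p6) are shown because they hold the letters GAAANNGAAA, the core of an interferon-stimulated response element, in capitals, beginning at base 19 after the start.
Eif2ak2: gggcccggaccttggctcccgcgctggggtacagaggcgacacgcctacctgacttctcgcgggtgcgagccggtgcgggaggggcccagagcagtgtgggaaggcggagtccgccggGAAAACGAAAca
These letters were found on either strand in 3 of the 42 members with a RefSeq window (7.14%, Eif2ak2, Eif2s1 and Eif3a), in 3.99% of all genes with one and in 3.52% of those at 10 FPKM or more.

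**Figure D5:**
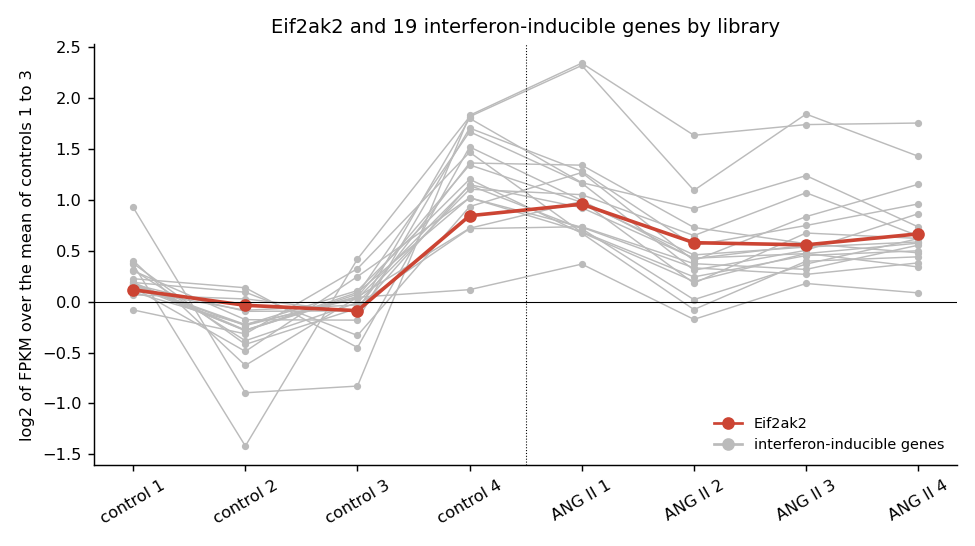
Log2 of FPKM over the mean of control replicates 1 to 3 (y axis) in each of the 8 libraries (x axis) for Eif2ak2 (red) and 19 interferon-inducible genes (grey, 1 line each). Control replicate 4 was the highest control for Eif2ak2, at 25.1 FPKM, and for 18 of the 19 genes.

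Among eIF1 and eIF1A, which keep the scanning ribosome open until it meets a start codon, 0 of 5 genes were called. Eif1, the start codon selection factor and the most abundant of them, was at 437, 402, 399.8 and 391 FPKM in control against 399, 389, 449.9 and 451 FPKM in ANG II. These overlapped fully, and 19.2% of the 50-base words of Eif1 are shared with other genes. Its paralog Eif1b was at 33.2, 30.3, 32.3 and 31.4 FPKM in control against 35.8, 34.7, 39.1 and 38.0 FPKM in ANG II, without overlap (log2 fold change 0.21, SE 0.0564; limma, Benjamini-Hochberg adjusted p = 0.0180), and at -0.02 under median-of-ratios scaling. Eif1b made up 7.25 ± 0.246% of the pair in control and 8.05 ± 0.207% in ANG II (SD of 4 libraries per group), with library shares of 7.07, 7.00, 7.48 and 7.44% and of 8.23, 8.18, 8.003 and 7.77%. The small difference of 0.801 percentage points had no overlap (two-sided exact permutation test, p = 0.0286, adjusted 0.0476 over the 5 families). Eif1a, the autosomal eIF1A gene, was at 14.6, 12.4, 11.5 and 13.8 FPKM in control against 20.4, 17.0, 18.1 and 17.4 FPKM in ANG II. Its groups did not overlap (log2 fold change 0.45, SE 0.0865; limma, Benjamini-Hochberg adjusted p = 0.00311), and it passed the fold change threshold at 0.50 only when control replicate 1 was left out. Its log2 fold change was 0.24 (adjusted p = 0.0578; limma, Benjamini-Hochberg) under median-of-ratios scaling, 0.20 (0.0928) after quantile normalization and 0.31 (0.0233) after rescaling. Eif1ax, the X-linked eIF1A gene, was at 28.0 ± 0.979 and 27.0 ± 1.66 FPKM (SD of 4 libraries per group; log2 fold change -0.05). Eif1ad, an eIF1A-like protein, was at 12.4 ± 0.581 and 13.5 ± 0.135 FPKM (SD of 4 libraries per group), without overlap and with an adjusted p-value of 0.169 (limma, Benjamini-Hochberg).

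The late factors eIF5, eIF5A, eIF5B and eIF6 act at start codon recognition, subunit joining and elongation, and in all 5 of their genes the groups did not overlap, with ANG II higher (28.7% of all tested genes, and 39.8% of those at 10 FPKM or more). An adjusted p-value under 0.05 was reached by 4 of them and missed by Eif5b (0.0618; limma, Benjamini-Hochberg). Eif5a2, an eIF5A paralog with narrow expression in adult tissue, was at 0.812, 0.858, 0.781 and 0.546 FPKM in control against 1.48, 1.43, 1.51 and 1.66 FPKM in ANG II. These low values rested on 42 to 65 fragments per control library and 113 to 133 per ANG II library, recovered from the FPKM steps. The mean rose 2.03-fold, the highest ratio of means among the 52 members, while its log2 fold change of FPKM + 1 was 0.53 (SE 0.101; limma, Benjamini-Hochberg adjusted p = 0.00296), since the added 1 shrinks low values. Without control replicate 4, its lowest library, that value was 0.47 and not called, and under the 3 other scalings it was 0.31 to 0.46. Eif5a, the abundant paralog that helps ribosomes past proline-rich stretches, was at 192, 192, 188 and 178 FPKM in control against 215, 219, 226 and 210.5 FPKM in ANG II (log2 fold change 0.21, SE 0.0449; limma, Benjamini-Hochberg adjusted p = 0.00535). Eif6, which keeps the large ribosomal subunit from joining too early, was at 29.4, 29.8, 23.1 and 26.4 FPKM in control against 39.8, 36.3, 38.4 and 32.6 FPKM in ANG II. Its log2 fold change was 0.43 (SE 0.0912; limma, Benjamini-Hochberg adjusted p = 0.00560) as deposited, 0.20 (adjusted p = 0.112) under median-of-ratios scaling, 0.23 (0.0776) after quantile normalization and 0.28 (0.0426) after rescaling. Eif5, the activator of GTP hydrolysis by eIF2, was at 122 ± 5.93 and 141 ± 9.23 FPKM, and Eif5b, the subunit joining factor, at 48.9 ± 1.60 and 54.8 ± 3.80 FPKM (SD of 4 libraries per group). Under median-of-ratios scaling Eif5, Eif5a and Eif5b had negative log2 fold changes of -0.02, -0.02 and -0.07.

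Genes that work with the initiation factors gave a mixed picture against the same background of 14% called higher and 1.41% called lower. Of 17 elongation, termination and recycling factors, 1 was called higher (5.88%): Eef1a1, which delivers aminoacyl-tRNA, went from 849, 865, 684 and 781 FPKM to 2174, 1767, 1995 and 1758 FPKM (log2 fold change 1.27, SE 0.0957, and 1.045 under median-of-ratios scaling). Its muscle paralog Eef1a2 was at 479, 524, 493 and 524 FPKM in control against 427, 465, 409.7 and 457 FPKM in ANG II (log2 fold change -0.20, SE 0.0578; limma, Benjamini-Hochberg adjusted p = 0.0239, not called). The sign was thus opposite in the pair, as deposited and under median-of-ratios scaling; Eef1a1 has many processed pseudogenes, and its shared sequence was not measured. Of 21 accessory initiation and cap or poly(A) binding genes, 2 were called higher (9.52%), the poly(A)-binding protein Pabpc1 (log2 fold change 0.97, SE 0.0674) and Pdcd4, an inhibitor of eIF4A (0.53, SE 0.101). Of 28 mTORC1 and MNK signalling genes, 2 were called higher (7.14%), the sestrins Sesn3 (0.58, SE 0.0727) and Sesn2 (0.52, SE 0.108), which are inhibitors of mTORC1 rather than activators. Eef1a1 and Pabpc1 were called under the 3 other scalings too, whereas Pdcd4 was not and both sestrins were not. The 1 mTORC1 gene called under each of those scalings was lower in ANG II: Rragd, a Rag GTPase that recruits mTORC1 to the lysosome, at 48.2, 47.1, 50.6 and 51.1 FPKM in control against 36.998, 38.5, 33.9 and 41.6 FPKM in ANG II. Its groups did not overlap, and as deposited its log2 fold change of -0.38 (SE 0.0655; limma, Benjamini-Hochberg adjusted p = 0.00182) was within the fold change threshold. Single libraries also moved these counts: Pdcd4 was not called without control replicate 4 or ANG II replicate 3 (1 call left), nor Sesn2 without ANG II replicate 4 (1 call left); 2 elongation genes were called without control replicate 2, ANG II replicate 1 or ANG II replicate 4. The median log2 fold changes of these 3 lists were 0.11, 0.06 and 0.15, beside 0.15 for all genes.

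Larger shares were called in a pair of lists tied to stress and growth. The lists were chosen with earlier results of these data known, so these shares describe them and test nothing. Of 35 tested genes of 36 known as targets of the integrated stress response, 12 were called higher (34.3%) and 1 lower, and their median log2 fold change was 0.37. The highest were Nupr1, a stress-induced chromatin protein (1.92, SE 0.175), Mthfd2, a mitochondrial folate enzyme (1.59, SE 0.123), and Phgdh, the first enzyme of serine synthesis (1.13, SE 0.137), each without overlap between the groups. Gdf15, a stress cytokine (0.98, SE 0.263), had overlapping groups, and Cth, which makes cysteine, was lower (-0.67, SE 0.146). Under median-of-ratios scaling and under rescaling 8 were called higher and 3 lower, and under quantile normalization 4 were called higher and 3 lower. Sesn2 stands in this list as well as in the mTORC1 list. Atf4, whose message is translated when eIF2 is phosphorylated, was at 47.6, 38.9, 50.7 and 38.4 FPKM in control against 68.8, 60.2, 49.3 and 69.97 FPKM in ANG II, with ANG II replicate 3 inside the control range. Its log2 fold change of 0.49 (SE 0.125; limma, Benjamini-Hochberg adjusted p = 0.0139) was under the fold change threshold, and it was called without control replicate 1, control replicate 3 or ANG II replicate 3. Of 9 genes of MYC and its partners, 4 were called higher (44.4%): Myc itself, from 2.42, 2.12, 2.08 and 2.36 FPKM to 5.23, 5.94, 4.18 and 4.13 FPKM (log2 fold change 0.84, SE 0.120), and Mnt (0.63), Mxd1 (0.55) and Mxd4 (0.52), which are repressors that compete with MYC. Of these 4, Myc kept its call under each of the 3 other scalings, Mnt under rescaling, and the other two under none. Of the 10 mitochondrial initiation and elongation factors 0 were called, and their median log2 fold change was -0.20. An adjusted p-value under 0.05 with the lower value in ANG II was found for 6 of them (4.91% of all tested genes, and 9.31% of those at 10 FPKM or more), led by Tufm (-0.37) and Gfm1 (-0.31), and missed by the other 4, among which Mtif3 had a positive log2 fold change of 0.08; 1 or 2 were called lower under the other scalings. Phosphorylation of eIF2 or 4E-BP and the rate of translation were not measured in these libraries.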

How the data were processed

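RNA-seq of left ventricle was carried out on 4 control and 4 ANG II samples, grouped by their treatment labels and numbered as in their titles. Per the labels the samples are separate, and p-values measure the spread between them. The authors deposited 1 table of FPKM values with a column per library. The submitters' processing notes name HISAT, Bowtie2 and RSEM; versions, genome build, annotation and use of strand were not given in the sources used here. The extraction protocol in the labels names a cell material, while tissue labels give left ventricle. Gene positions came from GENCODE M21 (GRCm38), which held 55141 of 55679 gene IDs.

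Groups were set against each other with limma 3.58.1 (R 4.3.3; lmFit, eBayes, variance trend) on log2 of FPKM plus 1, for genes at a mean of at least 0.1 FPKM (19364) and Benjamini-Hochberg adjustment over all of them; a call needed an adjusted p-value under 0.05 and an absolute log2 fold change above 0.5, thresholds named by the study, with base 2 chosen here. Fold changes on this scale understate those of low genes. Family shares were tested by exact two-sided permutation over the 70 allocations of 8 libraries. Low FPKM values times the mean transcript length were whole multiples of 1 step per library (97.6 to 99.3% of values under 60 fragments, within 0.05), which gave the depth and the fragments used for voom. Shared sequence was the share of a gene's 50-base words found in other transcripts. The fits were tested on simulated data. Python 3.11.15, numpy 2.4.6, pandas 2.3.3 and matplotlib 3.10.9 were used for the other steps.

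Members and lists were chosen with earlier results of these data known. Values in all libraries are given for called members, for the 2 members of each role with the largest absolute log2 fold change among those with an adjusted p-value under 0.05, and for the most abundant member of each role, together with the paralogs they were compared with; called genes of related lists are named up to 4 a list. Sesn2 is named with the mTORC1 list. Cth, Isg15, Mx1 and the other interferon-inducible genes, Eef1a2, Rragd, Atf4, Tufm, Gfm1 and Mtif3 were named after their values had been seen. Alternatives changed the scaling, the pseudocount (to 0.1), the filter (dropped, or raised to 1 FPKM), the variance trend, the fold change threshold, the replicate number as a block, voom on recovered fragments, and each library left out in turn.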

Additional observations from a re-analysis of the deposited data

Results flagged for a closer look

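Of the 104 groups of 4 libraries of the 52 tested members, 3 held a library far from the other 3 by Dixon's test, which flags about 1 in 20 groups by chance, and 0 of the 10 groups of the 5 family shares did. Eif2ak2 in control replicate 4 was at 25.1 FPKM, against 13.1 to 15.1 FPKM in the other controls. Eif2ak1, the heme-regulated kinase, was at 12.8 FPKM in ANG II replicate 1, against 14.6 to 14.7 FPKM in the other ANG II libraries. Eif3f, an eIF3 subunit, was at 113 FPKM in ANG II replicate 1, against 104 to 105 FPKM in the others.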

How the results depend on the processing

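As deposited, 4 members were called, and 27 passed without a fold change threshold. Median-of-ratios scaling, quantile normalization and rescaling each left 1 called member. They moved the members' median log2 fold change from 0.204 to -0.0187, 0.0110 and 0.0625. They gave 1 each for accessory genes (main 2) and for mTORC1 genes (main 2, with the 1 then lower), 1, 1 and 2 for MYC and partners (main 4), and 2, 2 and 1, lower, for mitochondrial factors (main 0). Quantile normalization gave 7 integrated stress response targets (main 13). Without a fold change threshold the counts were 6447 of all genes (main 2981), 7 elongation factors (main 1), 7 accessory genes, 8 mTORC1 genes, 21 stress response targets and 6 mitochondrial factors; a pseudocount of 0.1 and voom each gave 2 elongation factors. The members' median minus that of all genes was 0.0567, and -0.0126 with a pseudocount of 0.1, 0.151 without a filter, 0.0148 with a filter at 1 FPKM, -0.0227 under median-of-ratios scaling, 0.0084 under rescaling and -0.0240 with voom. Leaving out each library gave 2722 to 3078 genes, 3 to 5 members, 1 to 2 elongation factors, 1 to 2 accessory genes, 1 to 3 mTORC1 genes, 9 to 16 stress response targets, 3 to 4 MYC genes and 0 mitochondrial factors, and differences of -2.37 to -0.937 for the Eif4e share (exact two-sided permutation p = 0.0286 without control replicate 3). Where a member or its median turned sign, the cause was not tested.

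Log2 fold changes that turned negative under median-of-ratios scaling, with an adjusted p-value under 0.05 before or after, were those of Eif1b (-0.0156), Eif2s2 (-0.0516), Eif2b2 (-0.00085), Eif3a (-0.0226), Eif3c (-0.0367), Eif3j1 (-0.21), Eif3l (-0.0413), Eif4e (-0.20), Eif4g1 (-0.22), Eif4g2 (-0.18), Eif5 (-0.0204) and Eif5a (-0.0169), and under quantile normalization Eif2s2 (-0.0159), Eif2b2 (-0.0033) and Eif3j1 (-0.20). Another 44 sign changes, in 19 members, joined values that both missed that p-value. Calls were lost under the 3 scalings by Eif4a1 (0.30 to 0.39), Eif5a2 (0.31 to 0.46) and Eif2ak3 (0.21 to 0.37). In all, 35 of the 52 members neither crossed the call threshold nor turned sign with a significant value under the 17 alternatives. This count leaves out lost adjusted p-values: of 27 members under 0.05 as deposited, 5 stayed so under each of the 3 other scalings.

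Same-numbered libraries did not deviate together (correlations from -0.0320 to 0.0620, with 1 of 4 closest to its own number). These values gave no sign of pairing by number, and so few libraries cannot exclude it. With the replicate block 2968 genes and the same 4 members were called, and the paired exact sign-flip test of the Eif4a1 and Eif4ebp1 shares gave p = 0.125, the smallest it can give. Depth limits Eif5a2, Eif4ebp3 and Eif3j2 most.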
